A study of Mus musculus with 8 samples.

Results

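The imprinted genes analysed here are 52 mouse genes of 21 loci on 11 chromosomes, chosen from a fixed list of gene symbols and looked up by Ensembl ID among the 46078 gene IDs of the deposited counts, where all 52 were found. They comprise 22 genes classed as maternally expressed, 27 as paternally expressed and 3 as tissue-dependent. The classes are simplified, since some genes classed as maternal, such as Ube3a and Ppp1r9a, are imprinted only in some tissues. The 4 groups of RNA-sequencing libraries compared have 2 libraries each, given as biological duplicates, and every group is labelled C57BL/6 and XY. The tcESCs are mouse embryonic stem cells (ESCs) that carry the tesco-cfp reporter and were cultured in N2B27 2iLIF. The tc;Sf1ESCs are a single G418-selected clone of these cells with a constitutive transgene of mouse Sf1 (the gene Nr5a1). The SCLCs, or Sertoli cell-like cells, carry both tesco-cfp and Sf1, were derived from tc;Sf1ESCs and were sorted as CFP-positive cells at day 12 of differentiation. The tod-PGCLCs, primordial germ cell-like cells, were sorted at day 6 of a testicular organoid as double-positive for GFP and a surface marker. That marker is described as SSEA1 in one place and as CD49f in another. They came from another ESC line, which carries Prdm1-gfp, so that line and differentiation cannot be told apart in their comparison with tcESCs. In their comparison with SCLCs the line, the Sf1 transgene, the culture and the cell type all differ and cannot be told apart either. Because the cells are labelled with a single inbred strain, the counts hold the sum of both parental alleles of each gene, and no statement on allelic expression can be made.

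Imprinted genes are expressed mainly from the allele inherited from one parent, under the control of regions whose DNA is methylated in only one of the parental germ lines. They lie in clusters in which a single control region governs several genes, often through a long non-coding RNA, and many of them regulate fetal and placental growth. In primordial germ cells these marks are erased, and in cultured ESCs they are known to be unstable. In mouse, the zinc finger protein ZFP57 and its partner TRIM28 keep the methylation of many control regions in place after fertilization and in ESCs, through a methylated TGCCGC motif.

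RefSeq promoter windows (GRCm38.p6, from 250 bases before to 50 after each annotated start) were found for 42 of the 52 genes. The letters TGCCGC, on either strand (GCGGCA on the other), were present in at least 1 window of 13 of the 42 genes (31.0%), against 13.1% of the 27025 symbols in that table and 11.6% of its 32851 windows. The member windows held a median of 15.5 CpGs and all windows a median of 7. A few windows are printed because their genes show the differences described below, and the capitals mark the TGCCGC motif on either strand. Zdbf2, Mest and Nap1l5 have the windows with the most matches, and Peg3 and Usp29 start head to head, so that their windows overlap and neither holds a match. The Zdbf2 window lies at the start of a longer RefSeq transcript, upstream of the gene's start in GENCODE M21, and the Mest window at an internal start of that gene.
Zdbf2, chr1:63200108-63200407, plus strand: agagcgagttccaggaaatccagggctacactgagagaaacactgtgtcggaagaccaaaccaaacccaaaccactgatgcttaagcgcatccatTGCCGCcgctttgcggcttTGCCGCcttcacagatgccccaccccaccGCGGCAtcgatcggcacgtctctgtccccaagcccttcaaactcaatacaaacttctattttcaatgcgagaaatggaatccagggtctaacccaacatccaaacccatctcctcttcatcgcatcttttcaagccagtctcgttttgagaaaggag
Mest, chr6:30737800-30738099, plus strand: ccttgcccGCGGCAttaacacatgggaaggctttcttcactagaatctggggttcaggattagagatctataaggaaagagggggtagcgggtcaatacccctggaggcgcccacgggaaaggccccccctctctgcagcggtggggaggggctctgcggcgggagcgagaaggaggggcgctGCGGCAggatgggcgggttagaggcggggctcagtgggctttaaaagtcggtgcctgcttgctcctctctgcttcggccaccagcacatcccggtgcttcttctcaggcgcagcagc
Nap1l5, chr6:58907077-58907376, minus strand: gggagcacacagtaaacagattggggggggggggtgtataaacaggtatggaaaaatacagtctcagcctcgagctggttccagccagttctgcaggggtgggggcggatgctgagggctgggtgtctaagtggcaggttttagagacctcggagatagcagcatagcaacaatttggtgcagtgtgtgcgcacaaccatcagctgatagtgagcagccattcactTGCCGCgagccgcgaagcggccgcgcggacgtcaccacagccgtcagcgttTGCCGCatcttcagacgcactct
Peg3, chr7:6730370-6730669, minus strand: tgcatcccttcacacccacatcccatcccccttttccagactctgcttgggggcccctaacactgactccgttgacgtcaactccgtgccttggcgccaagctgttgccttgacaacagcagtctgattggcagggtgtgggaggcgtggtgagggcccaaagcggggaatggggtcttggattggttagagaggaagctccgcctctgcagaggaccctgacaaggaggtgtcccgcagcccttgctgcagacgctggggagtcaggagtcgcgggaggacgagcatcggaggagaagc
Usp29, chr7:6730333-6730632, plus strand: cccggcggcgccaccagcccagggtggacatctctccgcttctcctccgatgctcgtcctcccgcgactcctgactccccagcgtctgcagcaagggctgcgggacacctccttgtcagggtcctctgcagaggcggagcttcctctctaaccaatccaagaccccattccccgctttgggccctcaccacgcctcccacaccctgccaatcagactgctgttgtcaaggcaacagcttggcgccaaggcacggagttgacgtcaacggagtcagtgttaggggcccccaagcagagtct

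Library totals on genes ran from 25411033 to 30680191 counts, at which 3 counts correspond to 0.0978 to 0.118 CPM (counts scaled to the library total on genes), and such limits cover counting error only. Nr5a1, the transgene's gene, had 1 and 0 counts in tcESCs, 52 and 30 in tc;Sf1ESCs, 341 and 535 in SCLCs and 6 and 5 in tod-PGCLCs. The 2 SCLC libraries differed from each other the most, with a median difference of 0.316 on the log2 scale over the imprinted genes, against 0.0731 in tc;Sf1ESCs, 0.139 in tcESCs and 0.236 in tod-PGCLCs. The 10 Sertoli markers summed to 477 and 471 CPM in SCLCs, 119 and 146 CPM in tod-PGCLCs and at most 18.7 CPM in ESCs. Of the 7 that could be tested in SCLCs against tc;Sf1ESCs, 6 were called higher (Sox9, Gata4, Wt1, Nr5a1, Dmrt1 and Cldn11) and none lower. A Sox9 enhancer drives the CFP used for sorting, and Nr5a1 is the transgene's gene, so these markers are not independent of the design. Amh, with 10 and 22 counts in SCLCs, was not called, and Dhh (5 and 1), Fshr (none) and Ptgds (6 and 31) were under the filter. The summed level of 10 visceral endoderm markers was 1811 and 3284 CPM in SCLCs, 29.1 and 38.4 CPM in tod-PGCLCs and at most 14.5 CPM in the ESC libraries. The 7 trophectoderm markers summed to 730 and 923 CPM in SCLCs, to 147 and 178 CPM in tod-PGCLCs and to at most 68.4 CPM in ESCs. Of the 6 that were tested in SCLCs against tc;Sf1ESCs, 4 were called higher and 1 lower. The 7 mesenchyme and stroma markers summed to 1185 and 1089 CPM in SCLCs, 62.6 and 63.4 CPM in tod-PGCLCs and at most 11.3 CPM in ESCs, and 6 of them were called higher in SCLCs than in tc;Sf1ESCs. The 9 PGC markers summed to 1098 and 1097 CPM in tod-PGCLCs and to at most 574 CPM in the other libraries.

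A gene was called changed with a fold change over 2 and an edgeR adjusted p under 0.05, and 50 of the 52 genes passed the filter of a mean count over 10 in each fit. The other two were Kcnq1, a potassium channel gene that had at most 7 counts in any library, and Slc22a3, an organic cation transporter gene that had 0 in both tc;Sf1ESC libraries and 2 to 22 elsewhere. The 50 genes tested comprise 20 classed as maternally expressed, 27 as paternally expressed and 3 as tissue-dependent. The counts below are therefore given out of 50.

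Between tc;Sf1ESCs and tcESCs, 16 of the 50 imprinted genes were called, 5 higher and 11 lower in tc;Sf1ESCs, against 11.7% of all 16481 genes tested (6.04% higher and 5.63% lower). Between SCLCs and tc;Sf1ESCs, 29 were called, 20 higher and 9 lower in SCLCs, against 42.2% of all genes. Between SCLCs and tcESCs, 26 were called, 18 higher and 8 lower, against 42.7% of all genes. Between tod-PGCLCs and tcESCs, 28 were called, 18 higher and 10 lower in tod-PGCLCs, against 29.4% of the 16707 genes of that fit. Between SCLCs and tod-PGCLCs, 32 were called, 18 higher and 14 lower in SCLCs, against 38.0% of all genes. As shares of the 50, these counts come to 32%, 58%, 52%, 56% and 64%. The median size of the log2 fold change over the imprinted genes was 0.458, 1.17, 1.18, 1.19 and 1.48 in the same order, and over all genes 0.318, 0.832, 0.843, 0.577 and 0.751. The comparisons share groups, so they are not independent of each other. Other genes within 500 kb of the members, leaving out further genes of the imprinted gene lists, were called in 24 of 174, 74 of 174, 73 of 174, 50 of 177 and 80 of 177 cases. Unlisted transcripts that share exon bases with a member, such as Snurf with Snrpn and Snhg14 with Ube3a, were not excluded. These other genes are therefore not a set known to be free of imprinting.

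**Figure D1:**
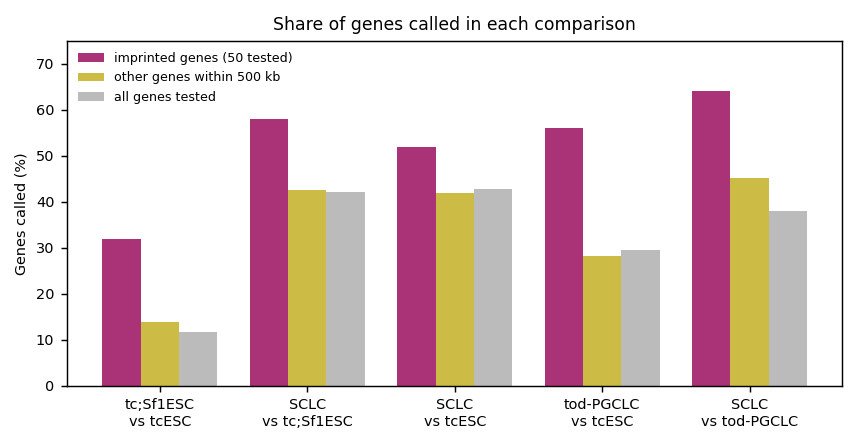
Bars give the percentage of genes called (fold change over 2 and edgeR adjusted p under 0.05) in each of 5 comparisons, for the 50 imprinted genes tested, for other genes within 500 kb of them that are in no imprinted gene list, and for all genes tested. The share of imprinted genes runs from 32% to 64% and that of all genes from 11.7% to 42.7%.

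**Figure D2:**
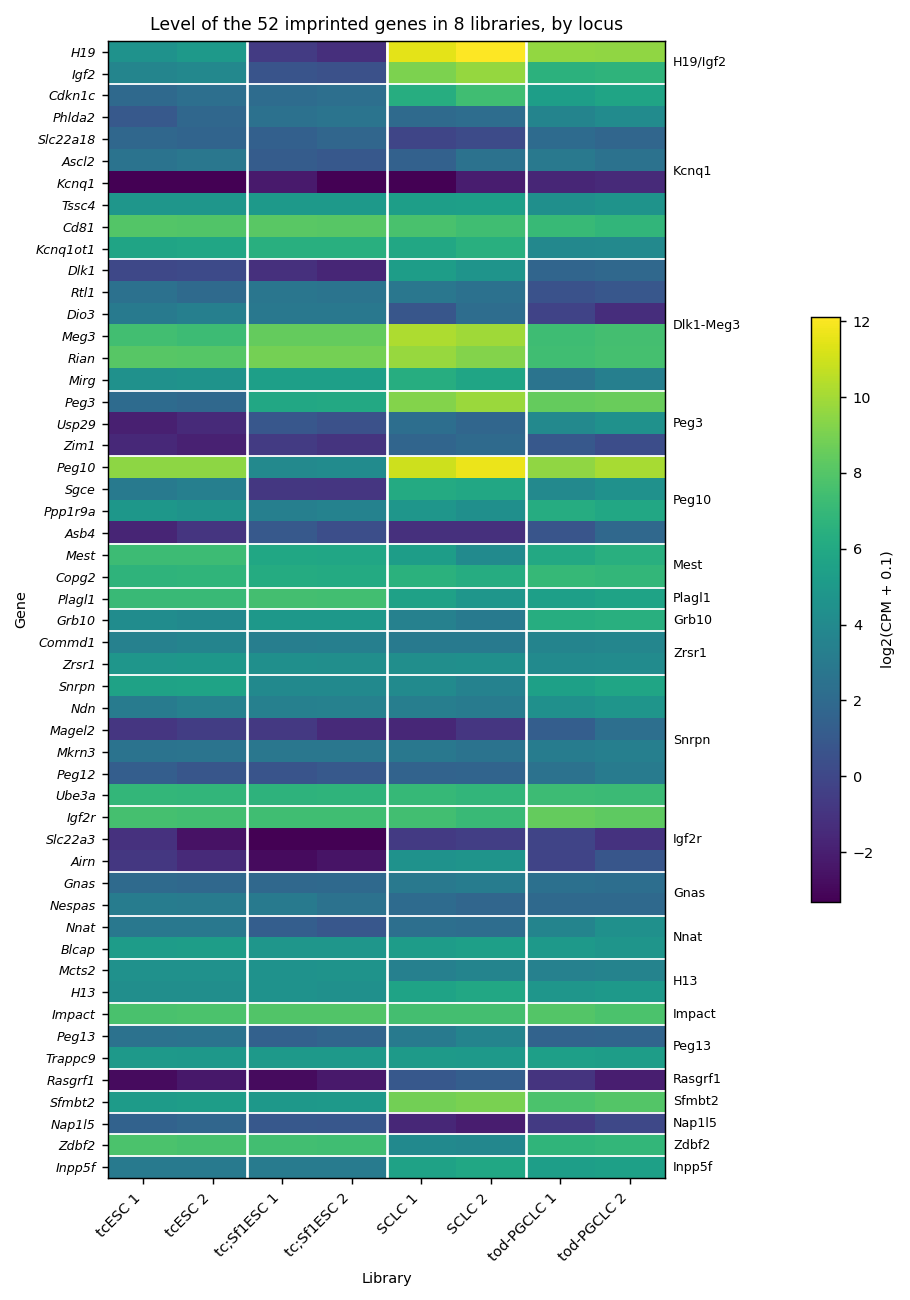
Colour gives log2(CPM + 0.1) of the 52 imprinted genes (rows, grouped by locus with the locus at the right) in the 8 libraries (columns, 2 a group). H19, Igf2, Peg3, Peg10 and Airn show the widest contrasts between groups, while genes such as Ube3a, Impact and Trappc9 keep a nearly even colour.

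At the H19/Igf2 locus both genes were lowest in tc;Sf1ESCs and highest in SCLCs. H19 (chr7:142575529-142578143), a non-coding RNA transcribed from the maternal allele, had 597 and 979 counts in tcESCs, 14 and 9 in tc;Sf1ESCs, 75795 and 129247 in SCLCs and 21209 and 20179 in tod-PGCLCs. In the SCLC libraries it ranked 11 and 8 among all genes by counts, and it ranked 14635 and 15753 in the tc;Sf1ESC libraries. No group overlapped another. The log2 fold change was -5.99 ± 0.41 (SE) in tc;Sf1ESCs against tcESCs (edgeR adjusted p = 0.000164), 13.09 ± 0.40 in SCLCs against tc;Sf1ESCs (edgeR adjusted p = 4.74e-07) and 4.71 ± 0.23 in tod-PGCLCs against tcESCs (edgeR adjusted p = 1.06e-06). SCLCs stood above tod-PGCLCs by 2.39 ± 0.21 on the log2 scale.

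Igf2 (chr7:142650766-142666816), the paternally expressed fetal growth factor that shares enhancers with H19, moved in the same directions. It had 332 and 455 counts in tcESCs, 40 and 36 in tc;Sf1ESCs, 14215 and 23498 in SCLCs and 2630 and 2796 in tod-PGCLCs. Its log2 fold changes in the order used for H19 were -3.28 ± 0.29, 8.93 ± 0.28 and 2.77 ± 0.19, with SCLCs 2.88 ± 0.18 above tod-PGCLCs. Per length, the TPM level of H19 was 4.18 and 5.01 times that of Igf2 in tcESCs, 0.814 and 0.582 times in tc;Sf1ESCs, 12.4 and 12.8 times in SCLCs and 18.8 and 16.8 times in tod-PGCLCs. In tc;Sf1ESCs the ratios rest on few counts, with exact 95% intervals from counting of 0.409 to 1.53 and 0.246 to 1.23, so that a level of H19 below that of Igf2 was not detectable at this depth. H19 alone made up 55.3% and 60.2% of the summed TPM of the 52 genes in SCLCs, 0.0542% and 0.0331% in tc;Sf1ESCs, 36.5% and 33.3% in tod-PGCLCs and 1.83% and 2.46% in tcESCs. Within 500 kb of this locus 9 other genes were tested, of which 2 were lower in tc;Sf1ESCs than in tcESCs and 5 were higher and 1 lower in SCLCs than in tc;Sf1ESCs. The part of the visceral endoderm, trophectoderm, and mesenchyme and stroma markers in the SCLC values was not tested. In bulk libraries such as these, fewer cells of a type and less RNA per cell cannot be told apart.

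The first exon of H19 holds the precursor of miR-675, whose mature forms (RefSeq, GRCm38.p6) are shown because their host transcript had the largest change, with the seed (bases 2 to 8) in capitals. The libraries were made from poly-A RNA, and the mature miRNAs were not measured. The 2 arms have different seeds.
mmu-miR-675-5p, chr7:142577112-142577133, minus strand: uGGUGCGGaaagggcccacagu
mmu-miR-675-3p, chr7:142577078-142577099, minus strand: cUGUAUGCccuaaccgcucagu

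In the neighbouring Kcnq1 domain the genes did not move together. Cdkn1c (chr7:143458339-143461050), which encodes the maternally expressed cell cycle inhibitor p57, had 97 and 151 counts in tcESCs, 112 and 135 in tc;Sf1ESCs, 2097 and 4799 in SCLCs and 1127 and 1361 in tod-PGCLCs. The 2 ESC groups overlapped, and both differentiated groups were above them, by 4.78 ± 0.38 on the log2 scale in SCLCs against tc;Sf1ESCs and by 3.32 ± 0.35 in tod-PGCLCs against tcESCs. SCLCs exceeded tod-PGCLCs by 1.54 ± 0.29, but without SCLC replicate 2 that difference was 0.92 and no longer called, and the rise over tc;Sf1ESCs became 4.15. Phlda2, a maternally expressed gene that restrains placental growth, had 47 and 106 counts in tcESCs, 135 and 166 in tc;Sf1ESCs, 104 and 129 in SCLCs and 348 and 469 in tod-PGCLCs. It was called higher in tod-PGCLCs than in tcESCs (2.42 ± 0.29) and SCLCs, and higher in tc;Sf1ESCs than in tcESCs (1.08 ± 0.29), a call that was lost without tcESC replicate 1 (0.71) and without tc;Sf1ESC replicate 1 (1.19) or 2 (0.97).

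Kcnq1ot1 (chr7:143203458-143296549), the paternally expressed non-coding RNA that silences this domain in cis, had 1332 and 1741 counts in tcESCs, 2206 and 2346 in tc;Sf1ESCs, 1600 and 2471 in SCLCs and 410 and 403 in tod-PGCLCs. Both tod-PGCLC libraries were below every other library, at a log2 fold change of -1.93 ± 0.15 against tcESCs (edgeR adjusted p = 1.17e-05), and SCLCs stood 2.41 ± 0.15 above tod-PGCLCs. Between tc;Sf1ESCs and tcESCs the difference was 0.65 ± 0.15 and not called. Slc22a18, a membrane transporter gene, had 87 and 94, 67 and 90, 22 and 31, and 112 and 87 counts in the order of the groups above. It was lower in SCLCs than in each other group, at -1.56 ± 0.26 on the log2 scale when set against tc;Sf1ESCs. Ascl2, a transcription factor of trophoblast progenitors, had 149 and 215 counts in tcESCs, 56 and 51 in tc;Sf1ESCs, 72 and 162 in SCLCs and 202 and 147 in tod-PGCLCs. Its fall in tc;Sf1ESCs (-1.67 ± 0.35) was no longer called when any 1 of the 4 libraries was left out (-1.79 to -1.54), and its rise in SCLCs over tc;Sf1ESCs (1.11 ± 0.35) was no longer called without SCLC replicate 2 (0.49) or without either tc;Sf1ESC library (1.18 and 0.98). Cd81, a tetraspanin gene, was called only in tod-PGCLCs against tcESCs (-1.06 ± 0.11), and not without tod-PGCLC replicate 2 (-0.93) or with library totals as the scale. Tssc4 was called in no comparison.

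At the Dlk1-Meg3 locus all 6 genes were higher in SCLCs than in tod-PGCLCs, and against tcESCs they went different ways. Meg3 (chr12:109541001-109571726), the first transcript of a long maternally expressed non-coding unit, had 4469 and 4804 counts in tcESCs, 9035 and 9604 in tc;Sf1ESCs, 32206 and 28350 in SCLCs and 4480 and 4877 in tod-PGCLCs. The tod-PGCLC libraries overlapped those of tcESCs (log2 fold change -0.01 ± 0.11). Meg3 was higher in tc;Sf1ESCs than in tcESCs by 1.08 ± 0.11, a value that fell to 0.99 and under the limit without tcESC replicate 2, and higher in SCLCs than in tc;Sf1ESCs by 1.71 ± 0.11. Rian and Mirg, which lie downstream in the same direction and host small nucleolar RNAs and microRNAs, were likewise highest in SCLCs. Rian had 6919 and 8225, 12505 and 13237, 22298 and 17607, and 4624 and 4989 counts. Mirg had 556 and 747, 1104 and 1141, 2101 and 1566, and 164 and 270 counts. Neither passed the limits in tc;Sf1ESCs against tcESCs (0.84 ± 0.14 and 0.87 ± 0.17), and both passed them in SCLCs set against tcESCs, on the higher side (1.48 ± 0.14 and 1.59 ± 0.17).

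Dlk1 (chr12:109452823-109463336), the paternally expressed Notch-like membrane protein of fetal progenitors, had 23 and 31 counts in tcESCs, 9 and 6 in tc;Sf1ESCs, 1020 and 728 in SCLCs and 87 and 98 in tod-PGCLCs. It rose by 6.85 ± 0.34 on the log2 scale in SCLCs over tc;Sf1ESCs and by 1.75 ± 0.29 in tod-PGCLCs over tcESCs. The lower level in tc;Sf1ESCs than in tcESCs (-1.75 ± 0.46) rested on these few counts and was no longer called without any 1 of the 4 libraries (-2.10 to -1.44). Dio3, which encodes the deiodinase that inactivates thyroid hormone, had 202 and 307, 185 and 197, 44 and 130, and 21 and 8 counts. It was called lower in tod-PGCLCs than in tcESCs (-4.13 ± 0.51), which became -4.94 without tod-PGCLC replicate 1. Its lower level in SCLCs than in tc;Sf1ESCs (-1.15 ± 0.39) was lost without SCLC replicate 1 (-0.61) and without either tc;Sf1ESC library (-1.20 and -1.17), and was -2.05 without SCLC replicate 2. Against tcESCs the SCLC value of -1.48 was lost without SCLC replicate 1 (-0.94) and without tcESC replicate 2 (-1.32), and was -2.38 without SCLC replicate 2. Rtl1, a retrotransposon-derived gene of the placenta that lies antisense to microRNAs of the maternal unit, had 133 and 122, 169 and 164, 179 and 154, and 38 and 46 counts, lower in tod-PGCLCs than in tcESCs at a log2 fold change of -1.63 ± 0.24.

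The log2 fold changes of SCLCs over tod-PGCLCs at this locus were 2.08 ± 0.24 for Rtl1, 2.16 ± 0.14 for Rian, 2.65 ± 0.54 for Dio3, 2.79 ± 0.12 for Meg3, 3.18 ± 0.25 for Mirg and 3.34 ± 0.24 for Dlk1. The Dio3 value was 1.76 without SCLC replicate 2 and 3.46 without tod-PGCLC replicate 1. The share of all genes called higher in that comparison was 19.5%. Of 11 other genes tested within 500 kb, 6 were called higher and 1 lower. Unlisted transcripts that share exon bases with Meg3 or Rian were not excluded from these. Against tcESCs, tod-PGCLCs had 3 of the 6 genes lower (Rtl1, Dio3 and Mirg), 1 higher (Dlk1) and 2 not called (Meg3 and Rian, the latter at -0.68 ± 0.13), where 11.2% of all genes were called lower and 18.1% higher.

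At the Peg3 locus the levels of all 3 genes were lowest in tcESCs. Peg3 (chr7:6703892-6730431), a paternally expressed zinc finger gene known for its roles in growth and maternal behaviour, had 106 and 113 counts in tcESCs, 1597 and 1735 in tc;Sf1ESCs, 16115 and 25412 in SCLCs and 9763 and 10282 in tod-PGCLCs. No group overlapped another. The rise from tcESCs to tc;Sf1ESCs was 4.001 ± 0.20 on the log2 scale (edgeR adjusted p = 5.96e-05), the largest increase of an imprinted gene in that comparison. SCLCs stood another 3.63 ± 0.17 above tc;Sf1ESCs (edgeR adjusted p = 2.34e-06), and tod-PGCLCs 6.49 ± 0.20 above tcESCs (edgeR adjusted p = 1.52e-07). The difference of 1.13 ± 0.15 between SCLCs and tod-PGCLCs was no longer called without SCLC replicate 2 (0.85) or with library totals as the scale.

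Usp29 (chr7:6730578-6967219), a paternally expressed ubiquitin protease gene that starts from the opposite strand of the Peg3 promoter printed above, had 4 and 8 counts in tcESCs, 44 and 36 in tc;Sf1ESCs, 125 and 97 in SCLCs and 426 and 583 in tod-PGCLCs. It rose with Peg3 in tc;Sf1ESCs (2.80 ± 0.41) and in tod-PGCLCs (6.35 ± 0.36 against tcESCs). Between the 2 differentiated groups the pair went opposite ways, with Usp29 lower in SCLCs than in tod-PGCLCs by a log2 fold change of -2.09 ± 0.25. The TPM level of Peg3 was 175 and 355 times that of Usp29 in SCLCs and 31.1 and 23.9 times in tod-PGCLCs. Zim1, a maternally expressed zinc finger gene next to Peg3, had 6 and 5, 14 and 11, 86 and 116, and 50 and 30 counts. It was higher in SCLCs than in tc;Sf1ESCs (2.99 ± 0.30) and in tod-PGCLCs than in tcESCs (2.81 ± 0.43), and the difference between the ESC groups (1.24 ± 0.44) was not called. Of 13 other genes tested within 500 kb of the locus, 5 were called higher and none lower in tc;Sf1ESCs than in tcESCs. The median log2 fold change of all genes of chromosome 7 in that comparison was 0.041.

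**Figure D3:**
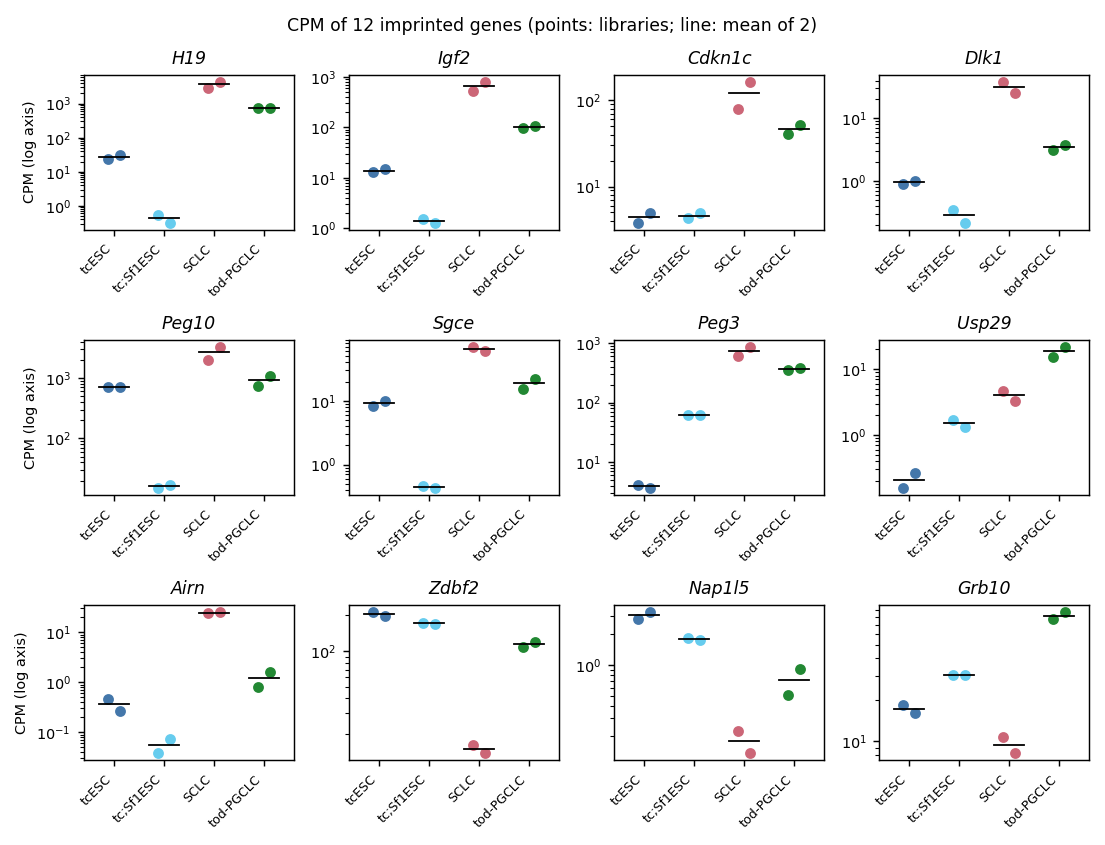
Points give the CPM of 12 imprinted genes in each library on a log axis that differs between panels, by group, and black lines the mean of the 2 libraries. H19, Igf2, Peg10, Sgce, Dlk1 and Airn are lowest in tc;Sf1ESCs and highest in SCLCs, Peg3 and Usp29 are lowest in tcESCs, Zdbf2, Nap1l5 and Grb10 are lowest in SCLCs, and Cdkn1c is low in both ESC groups.

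The Peg10 locus on chromosome 6 showed the opposite order in the ESC groups. Peg10 (chr6:4747306-4760517), a paternally expressed retrotransposon-derived gene needed for the placenta, had 18173 and 21817 counts in tcESCs, 396 and 478 in tc;Sf1ESCs, 52873 and 95302 in SCLCs and 20571 and 28971 in tod-PGCLCs. It ranked 130 and 129 among all genes by counts in tcESCs, 8208 and 7921 in tc;Sf1ESCs and 15 and 12 in SCLCs. Sgce (chr6:4674350-4747207), the paternally expressed gene for epsilon-sarcoglycan that shares the promoter region of Peg10 on the other strand, had 210 and 310, 12 and 12, 1864 and 1773, and 426 and 587 counts. The fall in tc;Sf1ESCs was -5.44 ± 0.26 on the log2 scale for Peg10 (edgeR adjusted p = 5.08e-05) and -4.33 ± 0.21 for Sgce (edgeR adjusted p = 5.20e-05). In SCLCs they rose from there by 7.39 ± 0.28 and 7.23 ± 0.19. In tod-PGCLCs neither was called against tcESCs (0.29 ± 0.23 and 0.95 ± 0.18), although Sgce passed without tcESC replicate 2 (1.06), without tod-PGCLC replicate 1 (1.20) and with library totals. Against tcESCs, SCLCs had more of both (1.95 ± 0.21 and 2.90 ± 0.13).

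The other two genes of the cluster gave other orders of the groups. Ppp1r9a, a neurabin gene with maternal expression in the placenta, had 720 and 753, 259 and 320, 735 and 586, and 2076 and 1636 counts, lowest in tc;Sf1ESCs (-1.28 ± 0.18 against tcESCs) and highest in tod-PGCLCs (1.30 ± 0.17 against tcESCs). Its rise in SCLCs over tc;Sf1ESCs (1.20 ± 0.18) was 0.97 without SCLC replicate 1. Asb4, a maternally expressed gene of ubiquitin ligase adaptors, had 5 and 13, 49 and 34, 9 and 10, and 43 and 98 counts. It was higher in tc;Sf1ESCs than in tcESCs (2.29 ± 0.43) and lower in SCLCs than in tc;Sf1ESCs (-2.12 ± 0.43). The former call was lost without tcESC replicate 1 (1.88) or tc;Sf1ESC replicate 1 (1.96), and was 2.96 without tcESC replicate 2. In tod-PGCLCs Asb4 exceeded tcESCs by 2.95 ± 0.54 (2.22 without tod-PGCLC replicate 2 and 3.59 without tcESC replicate 2). The median log2 fold change of the 776 genes tested on chromosome 6 was -0.314 in tc;Sf1ESCs and -0.296 in SCLCs against tcESCs, and that of 778 genes was -0.292 in tod-PGCLCs against tcESCs. Its part in the values of Peg10, Sgce, Ppp1r9a, Asb4, Mest, Copg2 and Nap1l5 was not tested. Against tcESCs, Ppp1r9a in tc;Sf1ESCs (-1.28 ± 0.18), Mest in tod-PGCLCs (-1.13 ± 0.29), and Nap1l5 in tc;Sf1ESCs (-0.77 ± 0.24) and Sgce in tod-PGCLCs (0.95 ± 0.18), both not called, lie nearer to the fold limit than the size of that median. The median was 0.0523 in SCLCs against tc;Sf1ESCs and 0.0240 in SCLCs against tod-PGCLCs.

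Zdbf2, Mest and Nap1l5, which have a promoter window with 2 or 3 TGCCGC motifs, were all lowest in SCLCs. Of the 13 genes with a match, 4 were called higher (Igf2, Meg3, Nnat and Zim1) and 6 lower in SCLCs than in tc;Sf1ESCs, and of 28 tested genes whose windows hold none, 11 were called higher and 3 lower. Of all genes, 24.1% were called higher and 18.1% lower in that comparison. The difference between the genes with and without a match was not tested, and Zdbf2, Mest, Igf2, Meg3, Grb10, Commd1 and Snrpn also have windows without one. Zdbf2 (chr1:63273265-63314576), a paternally expressed zinc finger gene whose imprint is set through a longer transcript of the early embryo, had 5415 and 6014 counts in tcESCs, 4496 and 4657 in tc;Sf1ESCs, 431 and 405 in SCLCs and 2986 and 3155 in tod-PGCLCs. Its log2 fold change in SCLCs was -3.45 ± 0.09 against tc;Sf1ESCs (edgeR adjusted p = 2.94e-07) and -2.78 ± 0.09 against tod-PGCLCs. In tod-PGCLCs against tcESCs it was at -0.92 ± 0.08, short of the fold limit, which it passed without tcESC replicate 2 (-1.03). Nap1l5 (chr6:58905233-58907076), a paternally expressed gene of the nucleosome assembly protein family that lies inside an intron of another gene, had 71 and 101, 47 and 48, 6 and 4, and 14 and 24 counts. It was lower in SCLCs than in tc;Sf1ESCs (-3.22 ± 0.35) and in tod-PGCLCs than in tcESCs (-2.18 ± 0.32). Between the ESC groups its difference of -0.77 ± 0.24 was not called.

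Mest (chr6:30723547-30748465), a paternally expressed hydrolase-like gene of mesoderm, had 3904 and 4746 counts in tcESCs, 1546 and 1552 in tc;Sf1ESCs, 1021 and 483 in SCLCs and 1757 and 2242 in tod-PGCLCs. It was called lower in the group named first in all 5 comparisons. The log2 fold change was -1.40 ± 0.31 in tc;Sf1ESCs against tcESCs, -1.02 ± 0.32 in SCLCs against tc;Sf1ESCs, -2.43 ± 0.32 in SCLCs and -1.13 ± 0.29 in tod-PGCLCs against tcESCs, and -1.30 ± 0.31 in SCLCs against tod-PGCLCs. The call in tc;Sf1ESCs was lost without any 1 of the 4 libraries (-1.44 to -1.36). The spread in that fit takes in the SCLC libraries, at 38.5 and 16.6 CPM. Mest was at 154 and 155 CPM in tcESCs and 59.6 and 56.1 CPM in tc;Sf1ESCs. The SCLC value against tc;Sf1ESCs was -0.54 without SCLC replicate 2 and -1.73 without SCLC replicate 1, and that call was also lost without either tc;Sf1ESC library (-1.02 and -1.08). Against tod-PGCLCs it was -0.80 without SCLC replicate 2 and -2.01 without SCLC replicate 1, and against tcESCs -3.13 without SCLC replicate 1. In tod-PGCLCs the call was lost without tod-PGCLC replicate 1 (-0.94). Mest and its antisense neighbour Copg2, a coatomer gene called in no comparison, share 23.1% and 17.8% of their exon bases on opposite strands, and whether the counting used strand is not given in the sources used here.

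At the Snrpn locus, the cluster of the Prader-Willi and Angelman syndromes, Ndn, Magel2 and Peg12 were higher in tod-PGCLCs than in tcESCs, and Mkrn3, which lies between the last pair, was not called. Ndn, a paternally expressed MAGE family gene, had 579 and 699 counts in tod-PGCLCs and 214 to 338 in the other libraries. Magel2, of the same family, had 64 and 130 counts in tod-PGCLCs and 6 to 18 in the others. Peg12, an intronless gene related to Wnt signalling regulators, had 151 and 223 counts in tod-PGCLCs and 39 to 89 elsewhere. Their log2 fold changes in tod-PGCLCs against tcESCs were 1.21 ± 0.17, 2.73 ± 0.47 and 1.72 ± 0.28. Ndn fell under the limit without tcESC replicate 1 (0.99), and Magel2 was 2.10 without tod-PGCLC replicate 2. Mkrn3, a ubiquitin ligase gene, stood at 0.59 ± 0.16.

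Snrpn (chr7:59982495-60140219), which encodes a protein of the splicing machinery, had 1223 and 1490 counts in tcESCs, 419 and 438 in tc;Sf1ESCs, 449 and 327 in SCLCs and 1219 and 1460 in tod-PGCLCs. It was lower in tc;Sf1ESCs than in tcESCs (-1.58 ± 0.17, edgeR adjusted p = 0.000812), and the SCLC libraries overlapped those of tc;Sf1ESCs (-0.14 ± 0.18) while the tod-PGCLC libraries overlapped those of tcESCs (-0.04 ± 0.17). Snrpn shares 27.3% of its exon bases with other annotated genes on its strand, so reads there can be set aside as ambiguous. Ube3a, the ubiquitin ligase gene at the other end of the cluster, which is maternally expressed in neurons, stayed between 103 and 153 CPM and was called in no comparison. Of the 6 genes, 4 (Snrpn, Ndn, Magel2 and Peg12) were lower in SCLCs than in tod-PGCLCs, against 18.5% of all genes. For Peg12 that difference of -1.09 was no longer called without tod-PGCLC replicate 2 (-0.76). For Magel2 it was -3.25 and became -2.63 without that library.

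At the Igf2r locus Airn changed in all comparisons, and Igf2r was called in none. Airn (chr17:12741311-12860136), the paternally expressed non-coding RNA antisense to Igf2r that represses it in cis outside the nervous system, had 12 and 8 counts in tcESCs, 1 and 2 in tc;Sf1ESCs, 629 and 739 in SCLCs and 22 and 43 in tod-PGCLCs. Summed over both libraries and scaled to the totals, the SCLC level was 440 times that of tc;Sf1ESCs, with an exact 95% interval from counting of 150 to 2135, since tc;Sf1ESCs held 3 counts in all. The tcESC level was 6.37 times that of tc;Sf1ESCs, with an interval of 1.89 to 33.5. The edgeR call of a lower level in tc;Sf1ESCs (-2.57 ± 0.58) was lost without tcESC replicate 1 (-2.12) and without tc;Sf1ESC replicate 1 (-2.22) or 2 (-3.06). The higher level in tod-PGCLCs than in tcESCs (1.66 ± 0.42) was lost without tcESC replicate 2 (1.22) and without tod-PGCLC replicate 2 (1.08). SCLCs stood 4.48 ± 0.29 above tod-PGCLCs on the log2 scale. Igf2r, the maternally expressed receptor that clears IGF2, stayed between 139 and 186 CPM in the ESC and SCLC libraries and stood at 357 and 311 CPM in tod-PGCLCs, a difference of 0.82 ± 0.12 from tcESCs and -0.95 ± 0.12 for SCLCs against tod-PGCLCs. Neither passed the fold limit, although the latter did without SCLC replicate 1 (-1.12), without tod-PGCLC replicate 2 (-1.05) and with library totals.

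**Figure D4:**
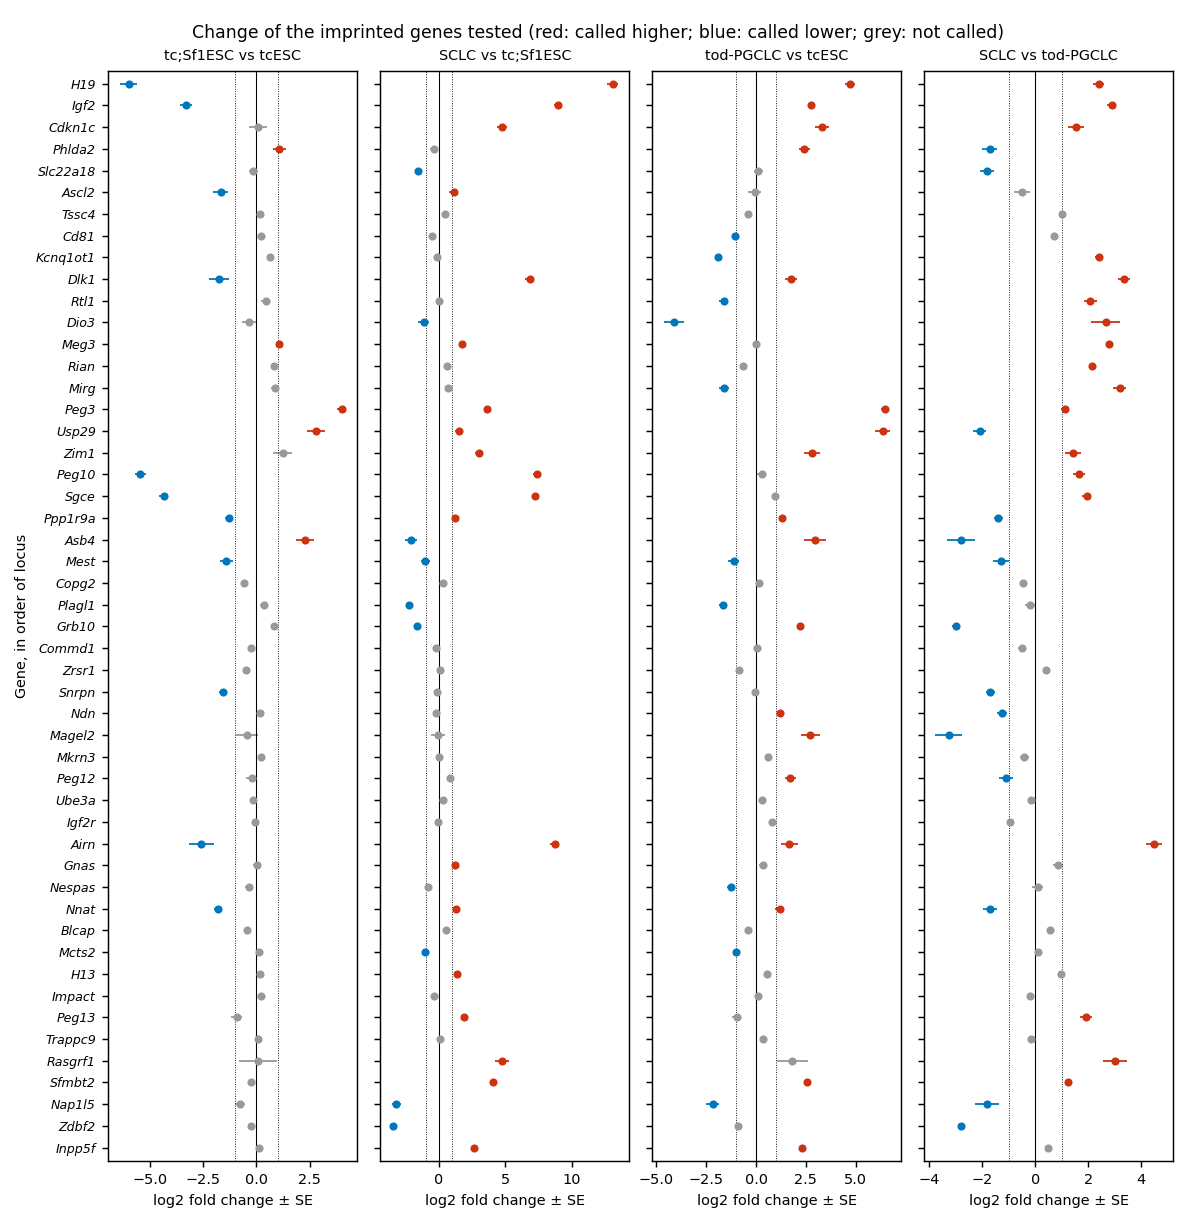
Points give the log2 fold change of each of the 50 imprinted genes tested, with bars of 1 SE, in 4 comparisons with separate axes; red and blue mark genes called higher and lower, and dotted lines the fold limit. In the first panel H19 at -5.99 and Peg10 at -5.44 lie farthest to the left and Peg3 at 4.001 farthest to the right, and in the last panel all 6 genes of the Dlk1-Meg3 locus are red.

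Among growth regulators outside these clusters, Grb10 had its highest level in tod-PGCLCs, Plagl1 was lower in SCLCs and tod-PGCLCs than in tcESCs, and Rasgrf1 was highest in SCLCs. Grb10 (chr11:11930508-12038683), an adaptor protein that restrains insulin and growth factor signalling and is maternally expressed in most tissues, had 466 and 492 counts in tcESCs, 781 and 834 in tc;Sf1ESCs, 284 and 240 in SCLCs and 2121 and 2310 in tod-PGCLCs. No group overlapped another, and the log2 fold change was 2.18 ± 0.13 in tod-PGCLCs against tcESCs and -2.98 ± 0.14 in SCLCs against tod-PGCLCs. The 1344 genes tested on chromosome 11 had a median of 0.516 in tod-PGCLCs against tcESCs and -0.529 in SCLCs against tod-PGCLCs. Its part in the values of Grb10, Commd1 and Zrsr1 was not tested. In tod-PGCLCs against tcESCs, Zrsr1 (-0.83 ± 0.09, not called) lies nearer to the fold limit than the size of that median. Plagl1, a paternally expressed zinc finger gene that restrains proliferation, had 3582 and 4242, 4728 and 4870, 1205 and 814, and 1146 and 1336 counts. It was lower in both differentiated groups, at -2.24 ± 0.20 on the log2 scale in SCLCs against tc;Sf1ESCs and -1.68 ± 0.19 in tod-PGCLCs against tcESCs, and SCLCs and tod-PGCLCs overlapped. Rasgrf1, a paternally expressed exchange factor for Ras, had 1 and 3 counts in each ESC group, 47 and 67 in SCLCs and 11 and 4 in tod-PGCLCs. Scaled to the totals, its SCLC level was 27.5 times that of tc;Sf1ESCs (exact 95% interval from counting 10.4 to 103), and it was called higher in SCLCs than in all other groups. Without SCLC replicate 2 it did not pass the count filter in the comparison with tod-PGCLCs.

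Sfmbt2 (chr2:10370510-10595253), a paternally expressed Polycomb-related gene needed in trophoblast, had 36.0 and 37.7 CPM in tcESCs, 30.4 and 31.0 CPM in tc;Sf1ESCs, 460 and 525 CPM in SCLCs and 215 and 249 CPM in tod-PGCLCs. The rise was 4.05 ± 0.09 on the log2 scale in SCLCs over tc;Sf1ESCs (edgeR adjusted p = 1.20e-07) and 2.58 ± 0.10 in tod-PGCLCs over tcESCs. Inpp5f, an inositol phosphatase gene of which only a variant is imprinted in brain, had 209 and 241, 224 and 237, 1256 and 1704, and 1109 and 1164 counts, with rises of 2.67 ± 0.13 and 2.31 ± 0.13 in the same comparisons. Counts per gene do not separate that variant.

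On chromosome 2, the host gene H13 was higher and its imprinted insert Mcts2 lower in SCLCs than in tc;Sf1ESCs, while Nnat changed and its host Blcap was called nowhere. H13, a signal peptide peptidase gene, was at 50.5 and 59.9 CPM in SCLCs and at 19.5 to 22.9 CPM in the ESC libraries (1.37 ± 0.10 against tc;Sf1ESCs). Mcts2, a paternally expressed retrogene in an intron of H13, was at 10.3 and 12.3 CPM in SCLCs, 10.8 and 12.0 CPM in tod-PGCLCs and 21.9 to 24.5 CPM in ESCs. Its log2 fold change of -1.04 ± 0.12 in SCLCs against tc;Sf1ESCs was -0.90 without SCLC replicate 1, and that of -1.03 ± 0.12 in tod-PGCLCs against tcESCs was -0.95 without tod-PGCLC replicate 1. Nnat, a paternally expressed proteolipid gene of neurons inside the intron of Blcap, had 180 and 218, 60 and 48, 132 and 130, and 346 and 563 counts. It was lower in tc;Sf1ESCs than in tcESCs (-1.80 ± 0.20), higher in SCLCs than in tc;Sf1ESCs (1.27 ± 0.20), and higher in tod-PGCLCs than in tcESCs (1.18 ± 0.25, and 0.76 without tod-PGCLC replicate 2). Blcap stood at -0.42 ± 0.09 and 0.56 ± 0.09 in the first pair of these comparisons.

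Peg13, a paternally expressed non-coding RNA inside Trappc9, had 8.19 and 12.4 CPM in SCLCs and 2.70 to 5.77 CPM in the other libraries (1.86 ± 0.24 in SCLCs over tc;Sf1ESCs), whereas Trappc9 stayed between 30.5 and 42.2 CPM and was called nowhere. Nespas, an antisense RNA of the Gnas cluster, was lower in SCLCs (-1.16 ± 0.21) and in tod-PGCLCs (-1.26 ± 0.20) than in tcESCs, but 38.5% of its exon bases lie opposite other annotated genes and the strand setting of the counting is not given in the sources used here, so that its level is uncertain. Gnas, which encodes the stimulatory G protein alpha subunit, was called higher in SCLCs than in both ESC groups (1.19 ± 0.18 against tc;Sf1ESCs), but at 3.55 to 8.97 CPM its level is uncertain, because 22.0% of its exon bases lie opposite other annotated genes. The 10 genes that were tested and called in no comparison were Tssc4, Copg2, Commd1, Zrsr1, Mkrn3, Ube3a, Igf2r, Blcap, Impact and Trappc9. Over the 8 libraries Impact ran from 184 to 250 CPM, Copg2 from 69.8 to 129 CPM, Blcap from 27.0 to 41.9 CPM, Tssc4 from 20.6 to 41.7 CPM, Zrsr1 from 16.3 to 28.3 CPM, Commd1 from 8.07 to 13.3 CPM and Mkrn3 from 5.78 to 10.1 CPM.

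By class, 3 of 20 maternally expressed genes rose and 3 fell in tc;Sf1ESCs against tcESCs, and 2 of 27 paternally expressed genes rose and 8 fell, where 6.04% of all genes rose and 5.63% fell. In SCLCs against tc;Sf1ESCs, 7 of 20 maternally expressed genes rose and 3 fell, and 11 of 27 paternally expressed genes rose and 6 fell, where 24.1% of all genes rose and 18.1% fell. The difference between the classes was not tested, and a gene of a class need not be imprinted in these cells.

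Regulators of imprints were examined as a list of 21 genes. None of 20 tested rose and 2 fell (Dnmt3l and Tet2) in tc;Sf1ESCs against tcESCs, which is 10% against 11.7% of all genes. In SCLCs against tc;Sf1ESCs 3 rose and 5 fell (40% against 42.2%), and of 21 in tod-PGCLCs against tcESCs 4 rose and 3 fell (33.3% against 29.4%). These shares are near those of all genes. Zfp57, which recognises the TGCCGC motif, stood at 953 and 935 CPM in tcESCs, 606 and 600 CPM in tc;Sf1ESCs, 60.3 and 47.0 CPM in SCLCs and 203 and 182 CPM in tod-PGCLCs. Its log2 fold change was -3.44 ± 0.12 in SCLCs against tc;Sf1ESCs (edgeR adjusted p = 6.85e-07) and -2.37 ± 0.11 in tod-PGCLCs against tcESCs. In SCLCs against tc;Sf1ESCs, Uhrf1, the cofactor of maintenance methylation, was at -2.47 ± 0.10, Tet1, an enzyme that oxidises methylcytosine, at -2.69 ± 0.22, and Tet3, of the same family, at 2.26 ± 0.20. In tod-PGCLCs the largest changes against tcESCs, beside that of Zfp57, were rises of Ctcfl, the germ-line paralogue of CTCF (5.27 ± 0.49, from 1 and 5 counts to 143 and 100), Dppa3, which protects methylation of the maternal genome in the zygote (2.66 ± 0.41, from 24.7 and 25.9 CPM to 154 and 181 CPM), and the de novo methyltransferase gene Dnmt3a (2.32 ± 0.15). The naive ESC markers, which include genes of the same state, summed to 823 and 590 CPM in SCLCs, to 2889 and 2798 CPM in tod-PGCLCs and to 4571 to 5121 CPM in ESCs, and their part in these values was not tested.

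**Figure D5:**
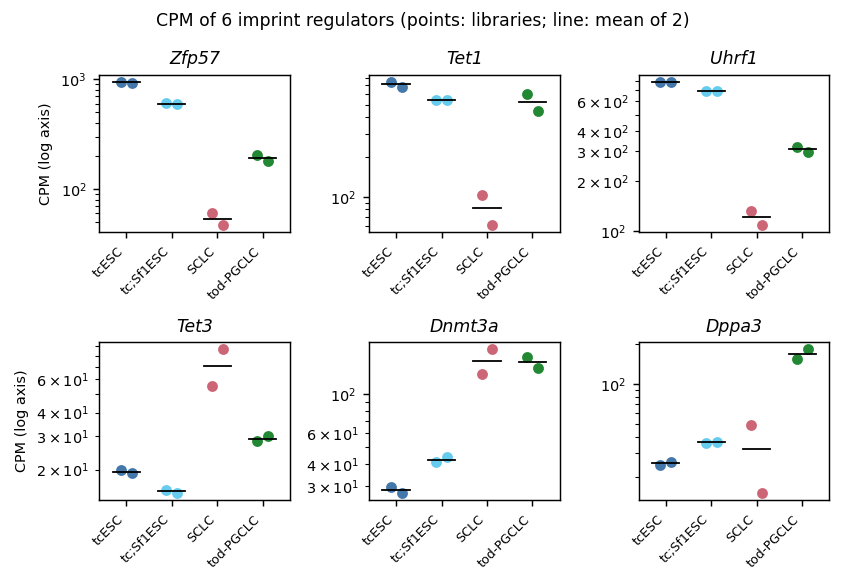
Points give the CPM of 6 imprint regulators in each library on a log axis that differs between panels, by group, and black lines the mean of the 2 libraries. Zfp57, Tet1 and Uhrf1 are lowest in the SCLC libraries, Tet3 is highest there, and Dppa3 is highest in tod-PGCLCs.

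A further 30 genes with reported imprinting were taken as a list, of which 23 were tested in each fit. In tc;Sf1ESCs against tcESCs none rose and 2 fell (Gatm and Ano1), which is 8.70% against 11.7% of all genes. In SCLCs against tc;Sf1ESCs 7 rose and 5 fell (52.2% against 42.2%), and in tod-PGCLCs against tcESCs 6 rose and 5 fell (47.8% against 29.4%). The largest changes in SCLCs were rises of Dcn, a proteoglycan of stroma (7.06 and 3.23 CPM, with no counts in tc;Sf1ESCs), Osbpl5, a lipid transfer gene (5.17 ± 0.24), and Gatm, a creatine synthesis enzyme, and a fall of Cobl, an actin nucleator (-4.23 ± 0.24). Gatm had 5 counts over both tc;Sf1ESC libraries, and its SCLC level was 9.64 times as high (exact 95% interval from counting 3.87 to 31.0). In tod-PGCLCs against tcESCs they were Cobl (-3.55 ± 0.22), the cell adhesion gene Adam23 (-3.53 ± 0.29), Dcn (0 and 2 counts in tcESCs and 11 and 10 in tod-PGCLCs, a ratio of 10.9 with an exact 95% interval from counting of 2.66 to 95.8) and the chloride channel gene Ano1 (-2.90 ± 0.35). Dcn moved with the mesenchyme and stroma markers, whose part in its values was not tested.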

How the data were processed

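The authors filtered reads with Trim Galore, aligned them to GRCm38 with STAR 2.4.0 and counted them per gene with HTSeq. They deposited raw read counts for each library, without normalization, which are the values used here. Strand setting and annotation release of the counting are not given in the sources used here. Reads set aside by the counting came to 35.6% to 41.6% of all records and entered no library size or test. Of the 46078 gene IDs, 45143 were named with GENCODE M21 (GRCm38), which also gave the coordinates and the exon lengths for TPM.

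Counts were analysed with R 4.3.3 and edgeR 4.0.16 (TMM, quasi-likelihood test, Benjamini-Hochberg adjustment over all genes tested). Genes needed a mean count above 10 over the libraries of the fit. One fit held the 6 libraries without tod-PGCLCs, and another all 8 for comparisons with tod-PGCLCs. SE is the log2 fold change divided by the square root of F. A call needed a fold change over 2 and an adjusted p under 0.05. P-values measure the spread between 2 libraries a group, estimated jointly over all groups of a fit. For tc;Sf1ESCs against tcESCs this takes in the SCLC libraries, which differed from each other the most. As alternatives, library totals, RLE size factors, filterByExpr, every gene with at least 1 count, other sets of libraries, DESeq2 1.42.0, an adjusted p under 0.01, a test against a 2-fold change, a replicate block and each library left out were tried.

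The members and lists were chosen with earlier results of these data known. Every member is accounted for, those called and at 1 CPM or more on average with their values. Of the regulators and further imprinted genes, the 4 with the largest change among called genes at 1 CPM or more are named in SCLCs against tc;Sf1ESCs and in tod-PGCLCs against tcESCs. Genes named beyond this were chosen after their values were seen. Promoters and miRNAs come from RefSeq, without chromosome 18. No promoter was matched for H19, Cdkn1c, Kcnq1, Rtl1, Peg10, Sgce, Nespas, Peg13 and Trappc9. Libraries of embryonic cells and of other PGCLCs were not analysed here.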

Additional observations from a re-analysis of the deposited data

How the results depend on the processing

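Of 3391 values of a member under an alternative, 3273 kept their side of the limits, 94 lost a call and 24 gained one. No value that was called in the main fit or the alternative reversed its direction. Among values called in neither, some changed sign, such as Rasgrf1 in tc;Sf1ESCs against tcESCs (-0.797 to 0.854). Every alternative that tested the gene kept the call for 8 of 16 genes in tc;Sf1ESCs against tcESCs, 21 of 29 in SCLCs against tc;Sf1ESCs, 23 of 26 in SCLCs against tcESCs, 20 of 28 in tod-PGCLCs against tcESCs and 25 of 32 in SCLCs against tod-PGCLCs. Rasgrf1, among these 25, was not tested without SCLC replicate 2, where its mean count did not pass the filter. In tc;Sf1ESCs against tcESCs the test against a 2-fold change called 8 members, and 594 genes in place of 1923. Leaving out 1 library gave 10 to 12 members there, with 1119 to 1240 genes called. In tod-PGCLCs against tcESCs the test against a 2-fold change called 3078 genes in place of 4906. Without 1 library the counts of members in the other comparisons ran from 26 to 27, 26 to 28, 26 to 29 and 29 to 36. Library totals shifted the median of all genes by -0.133 on the log2 scale in SCLCs against tod-PGCLCs and by less than 0.1 elsewhere. With the replicate block the counts of members called were 16, 29, 26, 28 and 32, the same as without it. The replicate numbers of the labels did not pair the libraries, since deviations from the group means of same-numbered libraries correlated at -0.0259 to 0.0624. Depth limits Kcnq1, Slc22a3, Airn in tc;Sf1ESCs and Rasgrf1 in ESCs, which had few or no counts.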
